A study of Mus musculus with 12 samples.

Results

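The 10 genes described here encode the machinery that builds, removes and reads linear ubiquitin chains: Rbck1, Rnf31, Sharpin, Otulin, Cyld, Spata2, Ikbkg, Tnfaip3, Tnip1 and Tnip2. They were chosen by symbol from the 27179 genes of the deposited count tables, with earlier results of these data known. All 10 passed the low-count filter that left 19398 tested genes. RNA was sequenced from 12 libraries of sorted C57BL/6 mouse thymic epithelial cells (TECs), the stromal cells that select developing T cells. Cortical TECs (cTECs, Ly51-positive and UEA1-negative) and MHC class II-high medullary TECs (mTEChi, UEA1-positive and Ly51-negative) came from HOIL-deficient mice (Foxn1cre T/+ Hoil lox/lox) and from controls (Foxn1cre +/+ Hoil lox/lox), with 3 libraries in each of the 4 groups. Both genotypes carried the floxed Hoil alleles, and the Foxn1cre allele, named for a transcription factor gene of the thymic epithelium, was carried by the HOIL-deficient mice alone, so its presence and the loss of HOIL cannot be told apart. The labels call the controls wild type and give no ages. The 2 female libraries were replicate 3 of both HOIL-deficient groups and the other 10 were male, so sex and genotype overlap in part. No label says that replicates came from separate animals. Each p-value sets a difference against the spread of libraries within groups, estimated over all 4 groups, and that spread may be technical. Totals ranged from 7941217 to 14274333 counts per library, and the lowest count of any of the 10 genes in a library was 101.

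LUBAC, the linear ubiquitin chain assembly complex, joins ubiquitin molecules head to tail through their first methionine. HOIP (Rnf31) holds the catalytic site, and HOIL-1 (Rbck1) and SHARPIN are the accessory subunits that stabilise it. The chains form on receptor complexes of the TNF receptor family, where NEMO (Ikbkg) binds them and activates the IkappaB kinases, and hence NF-kappaB. OTULIN cleaves linear chains, CYLD cleaves linear and lysine-63 chains and is tethered to HOIP by SPATA2, and A20 (Tnfaip3) and the ABIN proteins (Tnip1, Tnip2) bind the chains and restrain the signal. NF-kappaB signalling downstream of RANK and CD40 is known for its role in the maturation of medullary TECs.

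RefSeq start-site windows on GRCm38.p6 (UCSC mm10) were found for 9 of the 10 genes, with 14 windows of 300 bases each, from 250 bases before to 50 after a start. A kappaB motif, the sequence that NF-kappaB dimers bind, was searched for on both strands as GGGRNNYYCC. R stands for A or G, Y for C or T and N for any base. The motif occurred in 8.46% of all 32851 windows of that length. It occurred in 3 of the 14 windows, 1 each of Tnfaip3, Tnip1 and Cyld, and another Tnfaip3 window held no match. The 3 are shown so that their letters can be read beside the RNA levels. Capitals mark the matched stretches in the 250 bases before each start, read 5′ to 3′ on the gene's own strand. The windows lie at chr10:19015411-19015660 on the minus strand for Tnfaip3, at chr11:54962941-54963190 on the minus strand for Tnip1, and at chr8:88696778-88697027 on the plus strand for Cyld.
Tnfaip3: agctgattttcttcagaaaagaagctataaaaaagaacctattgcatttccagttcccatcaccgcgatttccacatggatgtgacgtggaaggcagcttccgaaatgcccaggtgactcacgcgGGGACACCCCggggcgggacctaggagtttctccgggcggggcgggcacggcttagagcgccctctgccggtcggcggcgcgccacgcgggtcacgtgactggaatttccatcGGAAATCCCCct
Tnip1: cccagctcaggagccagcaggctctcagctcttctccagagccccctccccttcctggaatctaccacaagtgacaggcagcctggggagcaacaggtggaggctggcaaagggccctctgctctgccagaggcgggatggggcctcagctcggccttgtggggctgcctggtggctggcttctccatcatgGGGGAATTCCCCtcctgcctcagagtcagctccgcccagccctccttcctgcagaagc
Cyld: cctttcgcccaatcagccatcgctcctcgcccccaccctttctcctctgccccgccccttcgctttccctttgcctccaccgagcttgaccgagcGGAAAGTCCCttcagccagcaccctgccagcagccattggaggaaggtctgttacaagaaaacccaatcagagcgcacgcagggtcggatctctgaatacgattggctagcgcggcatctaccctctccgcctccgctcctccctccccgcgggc
The Tnfaip3 window shown holds 2 separate matches, which begin 125 and 12 bases before the start. The Tnip1 match is a symmetric stretch of 12 bases, beginning 58 bases before the start, in which overlapping matches fall on both strands. The Cyld match begins 155 bases before the start. A match is a description of letters, and binding was not measured. As shown further on, Tnfaip3 RNA was lower in HOIL-deficient cells of both types, whereas the differences of Tnip1 and Cyld did not pass the threshold in either.

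Levels are given as CPM, counts relative to library totals that were scaled with the TMM method. Differences are log2 fold changes with an approximate standard error (SE) and a Benjamini-Hochberg adjusted p-value over 19398 genes from the quasi-likelihood test of edgeR, and a gene was called when that p was under 0.05. In HOIL-deficient cTECs, 3 of the 10 genes fell (Rbck1, Sharpin and Tnfaip3) and 0 rose, where 6.02% of all tested genes were called lower and 6.06% higher. In HOIL-deficient mTEChi, 4 fell (Rbck1, Rnf31, Otulin and Tnfaip3) and 1 rose (Tnip2), where 8.59% of all tested genes were called lower and 11.3% higher. Rbck1 is the deleted gene and counts among those that fell in both. The 10 genes were chosen with earlier results of these data known, so these counts are no test of the 10 against the background. The median log2 fold change of the 10 genes was -0.44 in cTECs and -0.05 in mTEChi, beside -0.02 and -0.03 over all tested genes. Without Rbck1, the median of the remaining 9 was -0.37 in cTECs and 0.05 in mTEChi. In all, 2342 genes were called in cTECs and 3858 in mTEChi. The genotype comparisons and the difference between them use the same libraries, so their values are set side by side.

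Samples and sorts set the frame for these values. All 6 cTEC markers in the list (such as Psmb11 and Prss16) were lower, and all 6 mTEChi markers (such as Aire and Fezf2) higher, in mTEChi than in cTECs of both genotypes. Markers of other cells moved with genotype: 12 thymocyte markers summed to 420.5 to 831 CPM in HOIL-deficient cTECs against 1164 to 3917 CPM in control cTECs, with 10 of 12 called lower. All 6 cTEC markers were lower in HOIL-deficient cTECs, with sums of 12207 to 12785 CPM against 25507 to 34766 CPM in control cTECs. Endothelial markers (9 of 10 higher) summed to 126 to 363 CPM in HOIL-deficient cTECs against 29.0 to 59.5 CPM in control cTECs, fibroblast and pericyte markers (6 of 10 higher) to 2433 to 3377 against 152 to 1396 CPM, and adipocyte markers (8 of 9 tested higher, Lep at 0 in both) to 319 to 599 against 25.0 to 47.2 CPM. Of the dendritic cell and macrophage list 1 of 10 was higher there, and of 7 tested B and plasma cell markers 1 was higher and 3 lower, with Pax5 at 0 in both. In HOIL-deficient mTEChi, 7 of 10 endothelial markers were higher, with sums of 194 to 594 CPM against 83.1 to 120 CPM in control mTEChi. There 2 of 10 fibroblast and pericyte markers and 1 of 9 tested adipocyte markers were higher, and 0 of 12 thymocyte markers were called. Of 5 general TEC markers (such as Epcam and Krt8), 3 were higher in HOIL-deficient mTEChi and 1 in HOIL-deficient cTECs. In mTEChi their sums were 11673 to 14846 CPM in HOIL-deficient libraries against 9345 to 10185 CPM in control libraries. In the same comparison, 1 of 6 cTEC markers was lower and 1 of 6 mTEChi markers higher. Mitochondrial transcripts took 1.71 to 1.91% of counts in HOIL-deficient mTEChi, against 8.93, 3.19 and 4.35% in control mTEChi, and Malat1 took 0.713 to 0.983% against 3.29 to 5.13%. The part of these differences in the results below was not tested. In sorted bulk samples, fewer cells expressing a gene and less RNA per cell cannot be told apart.

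Rbck1, which encodes HOIL-1, was the check of the labels. It lies at chr2:152316334-152332663 on the minus strand (Entrez 24105). It stood at 20.8, 31.3 and 20.6 CPM in HOIL-deficient cTECs, against 186, 236 and 214 CPM in control cTECs. In mTEChi it stood at 11.3, 11.8 and 23.4 CPM in HOIL-deficient libraries, against 130, 129 and 113 CPM in control libraries. The groups were far apart in both cell types, and replicate 3 of HOIL-deficient mTEChi, a female library, was the highest of its group. By the quasi-likelihood test, cTECs gave a log2 fold change of -3.13 for Rbck1 (SE 0.271, adjusted p = 2.8e-05), and for mTEChi it was -2.99 (SE 0.272, adjusted p = 4.5e-05). Single HOIL-deficient libraries kept 9.73 to 14.8% of the control mean in cTECs and 9.08 to 18.9% in mTEChi. These rest on 111 to 332 counts per library. Gene-level counts do not tell transcripts with a deleted segment from cells that kept the allele.

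Genes around Rbck1 were looked at as a check of the locus. Tbc1d20, 2340 bases away, did not pass the threshold in cTECs (adjusted p = 0.39) or mTEChi (adjusted p = 0.63). Trib3, which encodes a pseudokinase and lies 4762 bases from Rbck1, stood at 4.02, 6.12 and 4.41 CPM in HOIL-deficient cTECs against 7.38, 15.6 and 10.4 CPM in control cTECs. Its log2 fold change there was -1.19 (SE 0.362, adjusted p = 0.046), and it was 0.46 in mTEChi (adjusted p = 0.38). Csnk2a1, a kinase subunit gene 34478 bases away, passed the threshold in neither (adjusted p = 0.31 in cTECs and 0.23 in mTEChi), and Gm14164, 13006 bases away, was not tested.

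Rnf31 encodes HOIP, the catalytic subunit of LUBAC (Entrez 268749, chr14:55591713-55603674, plus strand). In mTEChi it measured 19.0, 18.8 and 14.7 CPM in HOIL-deficient libraries and 42.5, 28.8 and 30.8 CPM in control libraries. All 3 HOIL-deficient mTEChi libraries lay below all 3 controls. In cTECs it measured 21.6, 10.4 and 18.4 CPM in HOIL-deficient libraries and 20.1, 45.7 and 33.7 CPM in control libraries, and the groups overlapped through replicate 1 of each. Its log2 fold change was -0.96 in mTEChi (SE 0.322, adjusted p = 0.049), while cTECs had -0.98 (SE 0.323, adjusted p = 0.063), and the difference between these effects was 0.02 (approximate 95% interval -0.95 to 0.99). The interval does not show that the cell types respond alike. The mTEChi call was kept in 9 of 20 alternative analyses, and leaving out any of the 6 mTEChi libraries, HOIL-deficient cTEC replicate 1 or 3, or control cTEC replicate 3 ended it, with adjusted p-values of 0.051 to 0.17. In cTECs, leaving out control replicate 1, the library with the highest thymocyte marker sum, gave a log2 fold change of -1.24 (adjusted p = 0.018).

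Sharpin encodes the third LUBAC subunit (Entrez 106025, chr15:76347040-76351110, minus strand). In HOIL-deficient cTECs it measured 41.0, 50.3 and 42.2 CPM, against 85.5, 56.8 and 62.0 CPM in control cTECs. The groups did not overlap, and control replicate 1 was the highest. On the log2 scale the difference was -0.61 (SE 0.181, adjusted p = 0.041), but leaving out control replicate 1 brought it to -0.42 (adjusted p = 0.14), and the call was kept in 4 of 20 alternatives, among them 2 of the 12 that left out 1 library. In mTEChi, Sharpin was 41.3, 45.2 and 41.6 CPM in HOIL-deficient libraries and 42.5, 41.0 and 40.4 CPM in control libraries, with a log2 fold change of 0.05 (interval -0.34 to 0.44). The difference between the effects was 0.66 (interval 0.11 to 1.21), with an adjusted p of 0.12 over all genes.

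**Figure D1:**
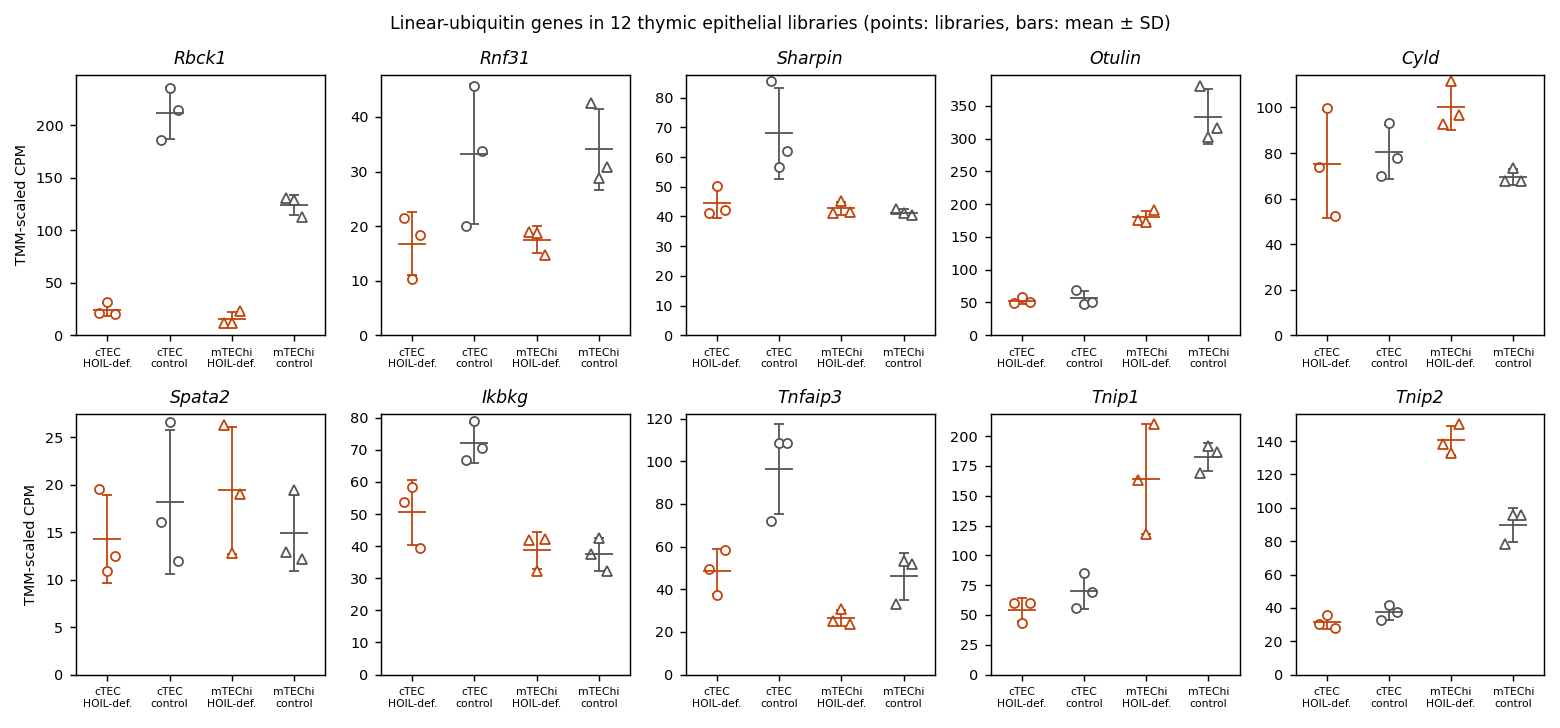
TMM-scaled CPM (vertical axes, each from 0) of the 10 genes in HOIL-deficient and control cTECs (circles) and mTEChi (triangles); points are libraries in replicate order and bars the mean ± SD of 3. Libraries of Rbck1 and Tnfaip3 do not overlap between genotypes in either cell type. The same holds for Rnf31, Otulin, Cyld and Tnip2 in mTEChi and for Sharpin and Ikbkg in cTECs. The share of all genes so separated was not counted. Otulin, Tnip1 and Tnip2 lie higher in mTEChi than in cTECs.

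Among the deubiquitinase genes, Otulin carried the clearest difference. OTULIN is the protease specific for linear chains, and its gene lies at chr15:27597055-27630977 on the minus strand (Entrez 432940). In HOIL-deficient mTEChi it measured 176, 172 and 191 CPM, against 381, 302 and 316 CPM in control mTEChi. Every HOIL-deficient library lay well below every control library. This was a log2 fold change of -0.89, a 1.85-fold lower level (SE 0.164, adjusted p = 0.0027), and it was called in all 20 alternatives that were run, with values from -0.98 to -0.81. Control replicate 1, the highest library, was also the one with the largest mitochondrial share, and without it the log2 fold change was -0.81 (adjusted p = 0.011). The remaining control mTEChi libraries, at 3.19 and 4.35%, still had larger mitochondrial shares than HOIL-deficient mTEChi, at 1.71 to 1.91%. That share and genotype cannot be told apart by this fit. In cortical cells Otulin measured 49.4, 58.6 and 50.5 CPM in HOIL-deficient cTECs and 69.3, 47.9 and 51.2 CPM in control cTECs, which overlapped, with a log2 fold change of -0.09 (interval -0.44 to 0.27, adjusted p = 0.82).

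The test of the difference itself, the HOIL effect in mTEChi minus that in cTECs, called 1 of the 10 genes lower (Otulin) and 1 higher (Tnip2), where 3.86% and 5.97% of all tested genes were called. For Otulin it was -0.80 (SE 0.233, adjusted p = 0.044). The call lay near the threshold and was lost in most analyses that left out 1 library. It was kept in 2 of these 12, those without control cTEC replicate 1 and without control mTEChi replicate 2, and its adjusted p reached 0.11. The size stayed between -0.98 and -0.70 in all 20 alternatives.

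Cyld encodes the other deubiquitinase (Entrez 74256, chr8:88696878-88751946, plus strand). It measured 92.6, 111 and 96.5 CPM in HOIL-deficient mTEChi and 67.6, 73.3 and 67.6 CPM in control mTEChi. The groups did not overlap, but the log2 fold change of 0.53 (SE 0.207) had an adjusted p of 0.088. It was called in 3 of 20 alternatives, with an adjusted p of 0.029 when only the mTEChi libraries entered and 0.045 without HOIL-deficient cTEC replicate 2 or 3. In cTECs it was 73.7, 99.8 and 52.3 CPM in HOIL-deficient libraries and 70.0, 93.2 and 77.9 CPM in control libraries, with no separation (log2 fold change -0.09, interval -0.54 to 0.35).

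Spata2, the adaptor between CYLD and HOIP, was the lowest of the 10 genes per length (Entrez 263876, chr2:167481136-167493238, minus strand). It ranged from 10.9 to 26.6 CPM over the 12 libraries and overlapped between genotypes in both cell types, with log2 fold changes of -0.35 in cTECs (adjusted p = 0.60) and 0.38 in mTEChi (adjusted p = 0.50). Its 5′ end overlaps Rnf114 on the opposite strand by 594 bases, 129 of them exonic. Since the strandedness of the counting is not given in the sources used here, reads from those bases cannot be told apart.

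The deubiquitinases can be set against each other per length, as CPM per kb of counted length. Otulin stood at 10.01 ± 1.29 times Cyld in HOIL-deficient mTEChi and 26.6 ± 4.23 times in control mTEChi (SD, n = 3 each). In cTECs the ratio was 4.10 ± 1.10 in HOIL-deficient and 3.98 ± 1.35 in control libraries. Otulin over Rnf31 was 23.8 ± 5.0 in HOIL-deficient mTEChi and 22.5 ± 1.86 in control mTEChi, with both genes lower in the HOIL-deficient libraries, and 8.07 ± 4.11 in HOIL-deficient cTECs against 4.54 ± 2.88 in control cTECs. Rbck1 over Rnf31 was 2.26 ± 1.52 in HOIL-deficient cTECs against 9.20 ± 2.79 in control cTECs, and 1.25 ± 0.757 in HOIL-deficient mTEChi against 4.97 ± 0.940 in control mTEChi. These ratios are descriptions and were not tested.

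Of the genes for proteins that read the chains, Tnfaip3 fell in both cell types. Its product A20 is an inhibitor of NF-kappaB signalling, and the gene lies at chr10:19000910-19015410 on the minus strand (Entrez 21929). In cTECs it measured 49.5, 37.1 and 58.4 CPM in HOIL-deficient libraries, against 72.0, 108 and 109 CPM in control libraries. In mTEChi it measured 24.9, 30.8 and 23.7 CPM in HOIL-deficient libraries, against 33.3, 53.1 and 51.6 CPM in control libraries. The genotypes did not overlap in either cell type, and control replicate 1 was the lowest control in both. It fell by 0.99 on the log2 scale in cTECs (SE 0.238, adjusted p = 0.016) and by 0.80 in mTEChi (SE 0.241, adjusted p = 0.032), and the mTEChi effect minus the cTEC effect was 0.19 (interval -0.53 to 0.92).

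Both Tnfaip3 calls were lost in some analyses that left out 1 library. In cTECs the adjusted p was 0.065 without HOIL-deficient replicate 2, 0.055 without control replicate 2 and 0.066 without control replicate 3. In mTEChi it was 0.099 without HOIL-deficient replicate 1, 0.10 without HOIL-deficient replicate 3 or control replicate 2, and 0.11 without control replicate 3, and with males only it was 0.10. The log2 fold change stayed negative in all 20 alternatives, from -1.17 to -0.83 in cTECs and from -1.01 to -0.68 in mTEChi.

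Tnip2 was the 1 gene of the 10 that rose. It encodes ABIN-2, a ubiquitin-binding partner of A20 and of the kinase TPL-2 (Entrez 231130, chr5:34496096-34513979, minus strand). HOIL-deficient mTEChi held 138, 133 and 150 CPM, against 78.2, 95.8 and 96.0 CPM in control mTEChi. The groups were well separated, and control replicate 1, with the largest mitochondrial share, was the lowest. Tnip2 rose by 0.64 on the log2 scale in HOIL-deficient mTEChi (SE 0.161, adjusted p = 0.014). The value was 0.53 (adjusted p = 0.065) without control replicate 1, 0.58 (adjusted p = 0.060) without HOIL-deficient replicate 3 and 0.60 (adjusted p = 0.053) with males only. In cTECs, Tnip2 was 30.3, 35.9 and 28.0 CPM in HOIL-deficient libraries and 32.6, 42.0 and 37.6 CPM in control libraries, with a log2 fold change of -0.25 (interval -0.60 to 0.10). The effect in mTEChi minus that in cTECs was 0.89 (SE 0.230, adjusted p = 0.027). That call was kept in 4 of the 12 analyses that left out 1 library, with values from 0.75 to 1.01 over the 12: those without HOIL-deficient cTEC replicate 2, control cTEC replicate 1, HOIL-deficient mTEChi replicate 2 and control mTEChi replicate 2. With RLE scaling it was 0.75 (adjusted p = 0.060) and with upper-quartile scaling 0.73 (adjusted p = 0.066).

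Tnip1 and Ikbkg did not pass the threshold for genotype. Tnip1, which encodes ABIN-1, the ubiquitin-binding adaptor that brings A20 to its targets (Entrez 57783, chr11:54910787-54962956, minus strand), measured 164, 118 and 210 CPM in HOIL-deficient mTEChi and 169, 192 and 187 CPM in control mTEChi. Its HOIL-deficient libraries spread on both sides of the controls, with a log2 fold change of -0.15 (interval -0.62 to 0.31). In cTECs it was 60.2, 43.1 and 59.6 CPM in HOIL-deficient libraries and 55.7, 85.5 and 69.5 CPM in control libraries (log2 fold change -0.37, interval -0.84 to 0.10).

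Ikbkg encodes NEMO, the regulatory subunit of the IkappaB kinase complex, and is X-linked (Entrez 16151, chrX:74393233-74456792, plus strand). In cTECs it was 53.7, 58.6 and 39.3 CPM in HOIL-deficient libraries against 66.8, 78.9 and 70.4 CPM in control libraries. The groups did not overlap, and the lowest value belonged to the female library. Its log2 fold change of -0.51 (SE 0.195) had an adjusted p of 0.10. In mTEChi it was 41.9, 32.1 and 42.2 CPM in HOIL-deficient libraries and 37.6, 42.6 and 32.3 CPM in control libraries (log2 fold change 0.05, interval -0.37 to 0.47). Its span overlaps G6pdx on the opposite strand, with 418 shared exonic bases, and reads from those bases cannot be told apart here either. G6pdx itself was not called for genotype in cTECs (adjusted p = 0.84) or mTEChi (adjusted p = 0.083).

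**Figure D2:**
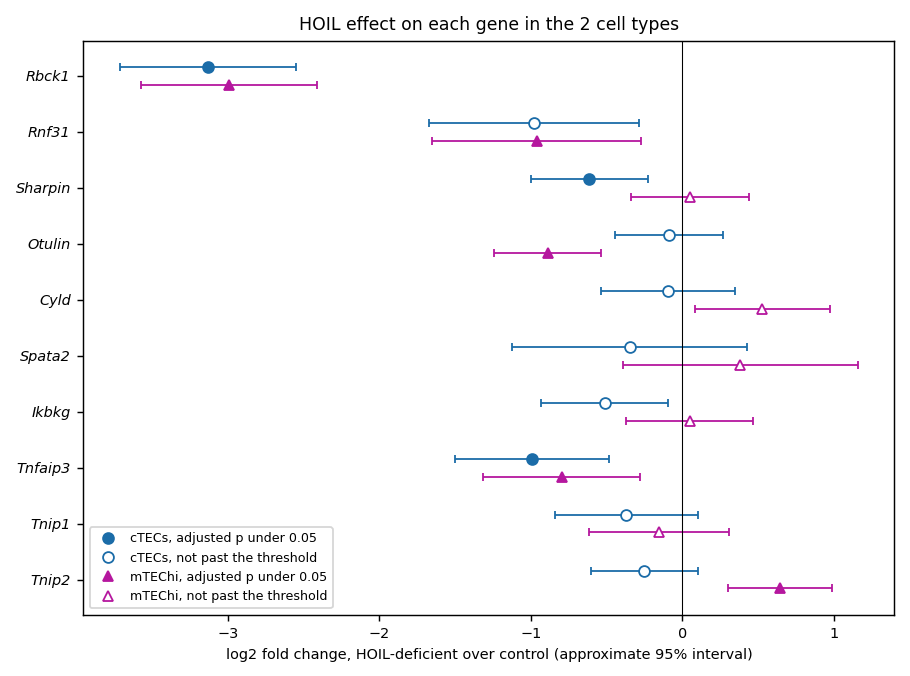
Log2 fold change of HOIL-deficient over control (horizontal axis) for each gene in cTECs (circles) and mTEChi (triangles), with approximate 95% intervals; filled symbols passed an adjusted p of 0.05. Otulin lies at -0.89 in mTEChi and -0.09 in cTECs, Tnip2 at 0.64 and -0.25, and Tnfaip3 lies below 0 in both.

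The 10 genes also differed between the medullary and cortical cells. In control mTEChi against control cTECs, 3 of the 10 were higher (Otulin, Tnip1 and Tnip2) and 4 lower (Rbck1, Sharpin, Ikbkg and Tnfaip3), in a comparison where 37.8% of all tested genes were called higher and 26.4% lower. In HOIL-deficient mTEChi against HOIL-deficient cTECs, 3 were higher (Otulin, Tnip1 and Tnip2) and 1 lower (Tnfaip3), where 32.0% and 16.4% of all tested genes were called. The shares of the 10 genes lie near these backgrounds, so the counts say nothing particular to them. The medians of the 10 were -0.25 in controls and 0.24 in HOIL-deficient cells, beside 0.24 and 0.19 over all genes. Markers of other cells also differed between the sorts. Higher in control mTEChi than in control cTECs were 8 of 10 dendritic cell and macrophage markers and 8 of 9 tested adipocyte markers. So were 5 of 7 tested B and plasma cell markers and 4 of 10 endothelial markers. Of 12 thymocyte markers 11 were lower, and of 10 fibroblast and pericyte markers 2 were higher and 3 lower. Their part in the results below was not tested. The comparisons share libraries with the genotype comparisons, so they are set side by side and not combined.

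Otulin showed the largest such difference of the 10 among controls. With the levels given above, its log2 fold change between control mTEChi and control cTECs was 2.57 (SE 0.174, adjusted p = 3.3e-08). Between HOIL-deficient mTEChi and HOIL-deficient cTECs it was 1.77 (SE 0.169, adjusted p = 1.2e-06). Tnip1 was higher by 1.38 in control mTEChi (SE 0.221, adjusted p = 0.0001) and by 1.60 in HOIL-deficient mTEChi (SE 0.223, adjusted p = 4.2e-05). Tnip2 was higher by 1.27 in control mTEChi (SE 0.165, adjusted p = 1.6e-05) and by 2.16 in HOIL-deficient mTEChi (SE 0.168, adjusted p = 1.7e-07). For these 3 genes no mTEChi library overlapped a cTEC library of the same genotype. The same held for Tnfaip3 in both genotypes and for Rbck1, Sharpin and Ikbkg in controls, so it is not particular to the 3. The share of all genes so separated was not counted. The calls of Otulin, Tnip1 and Tnip2 were kept in all 21 alternatives.

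Tnfaip3 ran the other way, with a log2 fold change of -1.07 in control mTEChi against control cTECs (SE 0.239, adjusted p = 0.0015) and -0.87 in HOIL-deficient cells (SE 0.240, adjusted p = 0.0080), where it had an adjusted p of 0.10 with males only. Ikbkg was lower by the same measure in controls, at -0.94 (SE 0.197, adjusted p = 0.00087), and Sharpin at -0.72 (SE 0.182, adjusted p = 0.0032). In HOIL-deficient cells these were -0.38 for Ikbkg (adjusted p = 0.13) and -0.06 for Sharpin (adjusted p = 0.81). Ikbkg was called there without HOIL-deficient cTEC replicate 3, a female library (-0.56, adjusted p = 0.036), and with males only (-0.63, adjusted p = 0.046). Rbck1 was lower in control mTEChi with a log2 difference of -0.77 (SE 0.249, adjusted p = 0.015), though with RLE scaling it was -0.58 (adjusted p = 0.057) and without control mTEChi replicate 3 it was -0.71 (adjusted p = 0.054). In HOIL-deficient cells the residual Rbck1 level differed by -0.63 (adjusted p = 0.058). Without HOIL-deficient mTEChi replicate 3, a female library, it was -1.11 (adjusted p = 0.0014), with males only -1.20 (adjusted p = 0.0018), without HOIL-deficient cTEC replicate 3 it had an adjusted p of 0.046, and with no low-count filter 0.042. Rnf31, Cyld and Spata2 passed the threshold in neither genotype, at 0.06, 0.41 and 0.44 in HOIL-deficient cells and 0.04, -0.21 and -0.29 in controls. Cyld in HOIL-deficient cells was 0.67 (adjusted p = 0.014) without HOIL-deficient cTEC replicate 2. The neighbour G6pdx, which overlaps Ikbkg, was also lower in control mTEChi, at -0.84 (adjusted p = 0.0066).

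Per kb of counted length, the order of the 10 genes differed between cell types. In HOIL-deficient mTEChi, Otulin led at 121 ± 6.74 CPM per kb, followed by Tnip2 (71.4 ± 4.48) and Tnip1 (55.8 ± 15.7), and the lowest were Ikbkg (5.35 ± 0.791), Rnf31 (5.17 ± 0.724) and Spata2 (4.86 ± 1.68). In control mTEChi, Otulin led at 223 ± 28.1 CPM per kb, followed by Tnip1 (62.2 ± 4.02), Rbck1 (48.9 ± 3.82) and Tnip2 (45.8 ± 5.18), and Spata2 was lowest at 3.72 ± 0.999. Rbck1 and Tnip2 lay within their spread of each other there.

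In HOIL-deficient cTECs, Otulin (35.4 ± 3.35 CPM per kb) and Sharpin (25.7 ± 2.91) were the 2 highest, and Spata2 (3.58 ± 1.16) and Rnf31 (4.97 ± 1.71) were the 2 lowest and overlapped. In control cTECs, Rbck1 led at 83.4 ± 9.87 CPM per kb, and Sharpin (39.3 ± 8.83) and Otulin (37.6 ± 7.72) came next and lay within their spread of each other. Tnip1, Tnfaip3 and Tnip2 followed at 19.0 to 23.9 CPM per kb, and Ikbkg, Rnf31 and Cyld at 9.74 to 9.96 CPM per kb, within their spread of each other. Otulin in control mTEChi exceeded 98.3% of all genes in the tables per length and Spata2 there exceeded 57.2%, so the 10 genes spanned a wide range of levels.

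**Figure D3:**
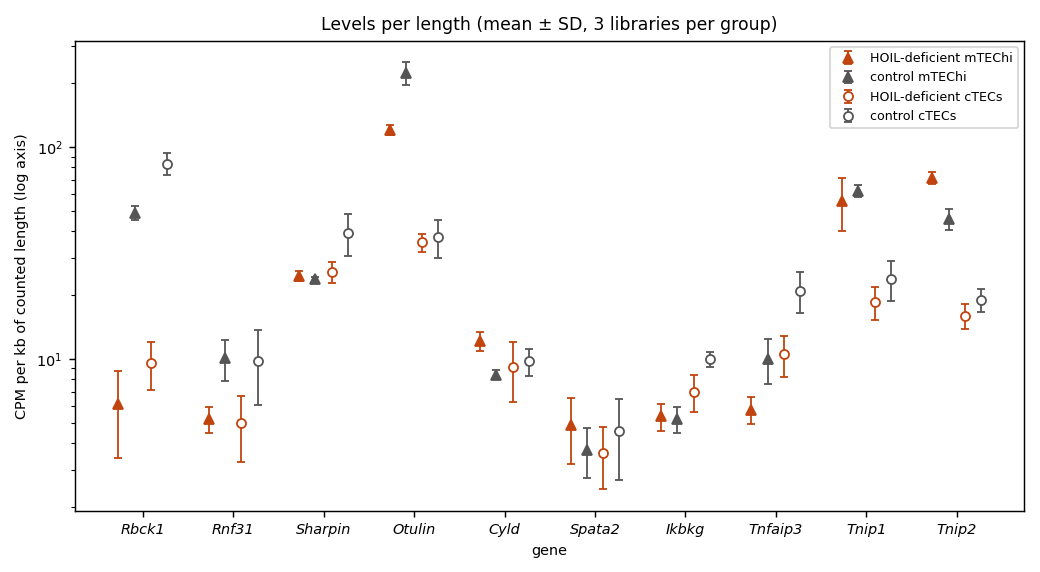
Mean CPM per kb of counted length ± SD (log axis, 3 libraries per group) of the 10 genes in mTEChi (triangles) and cTECs (circles) of HOIL-deficient and control mice. Otulin reaches 121 and 223 CPM per kb in HOIL-deficient and control mTEChi, and stays at 35.4 and 37.6 in HOIL-deficient and control cTECs.

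As a description over the 12 libraries, log2 CPM of Otulin and Tnip1 (r = 0.90), Tnip1 and Tnip2 (r = 0.90) and Otulin and Tnip2 (r = 0.83) varied together, and Otulin and Ikbkg varied oppositely (r = -0.75). These points share libraries, depth and the difference between cell types. The genes whose log2 CPM was most like that of Rnf31 over the 12 libraries, among 18412 other tested genes with a symbol, were Safb2 (Pearson r = 0.95), Brd2 (0.94), Hip1r (0.92), Ehmt2 (0.91) and Armc5 (0.91).

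A list of 32 further genes covered ubiquitin and its conjugating enzymes, other A20 partners, the TNF receptor 1 complex, and the TAB, TAK1 and IkappaB kinases. In HOIL-deficient cTECs, 1 of the 32 rose and 1 fell, no more than the background of 6.06% of all tested genes higher and 6.02% lower. The median log2 fold change was -0.09, beside -0.02 over all tested genes. Tank, an adaptor of the kinase TBK1, rose by 0.80 (SE 0.246, adjusted p = 0.049), with 85.8, 107 and 72.0 CPM in HOIL-deficient cTECs against 58.8, 57.0 and 36.5 CPM in control cTECs. Chuk, which encodes IkappaB kinase alpha, fell, with 69.3, 71.4 and 63.1 CPM in HOIL-deficient cTECs against 114, 94.2 and 98.1 CPM in control cTECs (log2 fold change -0.59, SE 0.180, adjusted p = 0.048). Neither gene's genotypes overlapped, and both p-values lie just inside the threshold: Tank was called in 7 and Chuk in 4 of 20 alternatives.

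In HOIL-deficient mTEChi, 4 of the 32 rose and 2 fell, which is near the background of 11.3% of all tested genes higher and 8.59% lower. The median log2 fold change was 0.08, beside -0.03 over all tested genes. Tab2, an adaptor by which TAK1 binds lysine-63 chains, fell to 24.4, 17.6 and 20.8 CPM in HOIL-deficient mTEChi, against 63.3, 41.7 and 48.5 CPM in control mTEChi. A log2 fold change of -1.29 resulted (SE 0.263, adjusted p = 0.0046), the largest of the 32 that were called, and it was called in all 20 alternatives. Nfkbia, which encodes the inhibitor IkappaB-alpha, measured 1823, 1530 and 1771 CPM in HOIL-deficient mTEChi and 2243, 2627 and 2788 CPM in control mTEChi. Its log2 fold change was -0.58 (SE 0.160, adjusted p = 0.022).

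The 4 that rose were Ube2l3, Vcp, Tbk1 and Birc3. Ube2l3 encodes UBCH7, a ubiquitin-conjugating enzyme that works with LUBAC, and it measured 116, 124 and 121 CPM in HOIL-deficient mTEChi, against 81.0, 78.2 and 81.1 CPM in control mTEChi. Its libraries lay close together within each genotype, and the log2 fold change was 0.59 (SE 0.1395, adjusted p = 0.011), and the call was kept in all 20 alternatives. Vcp, which encodes an ATPase that binds HOIP, rose by 0.57 (adjusted p = 0.011). Tbk1, a kinase that phosphorylates receptor-complex components, rose by 0.63 (adjusted p = 0.023), and Birc3, which encodes the ubiquitin ligase cIAP2, by 0.60 (adjusted p = 0.028). Of 20 alternatives, 19 kept the call of Vcp, 16 that of Tbk1, 15 that of Nfkbia and 13 that of Birc3.

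The difference between the HOIL effects called 2 of the 32 genes higher and 0 lower, where 5.97% of all tested genes were called higher and 3.86% lower, so the count is near the background. Tbk1 had a difference of 1.02 (SE 0.247, adjusted p = 0.021), with 49.2, 51.8 and 65.7 CPM in HOIL-deficient mTEChi against 30.5, 39.6 and 37.8 CPM in control mTEChi. In cTECs it had 61.9, 60.3 and 51.4 CPM in HOIL-deficient libraries against 71.8, 82.6 and 73.8 CPM in control libraries, and this cTEC effect of -0.39 did not pass the threshold (adjusted p = 0.16). Birc3 had a difference of 0.92 (SE 0.248, adjusted p = 0.033), and this was called in 8 of 20 alternatives, and that of Tbk1 in 16.

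**Figure D4:**
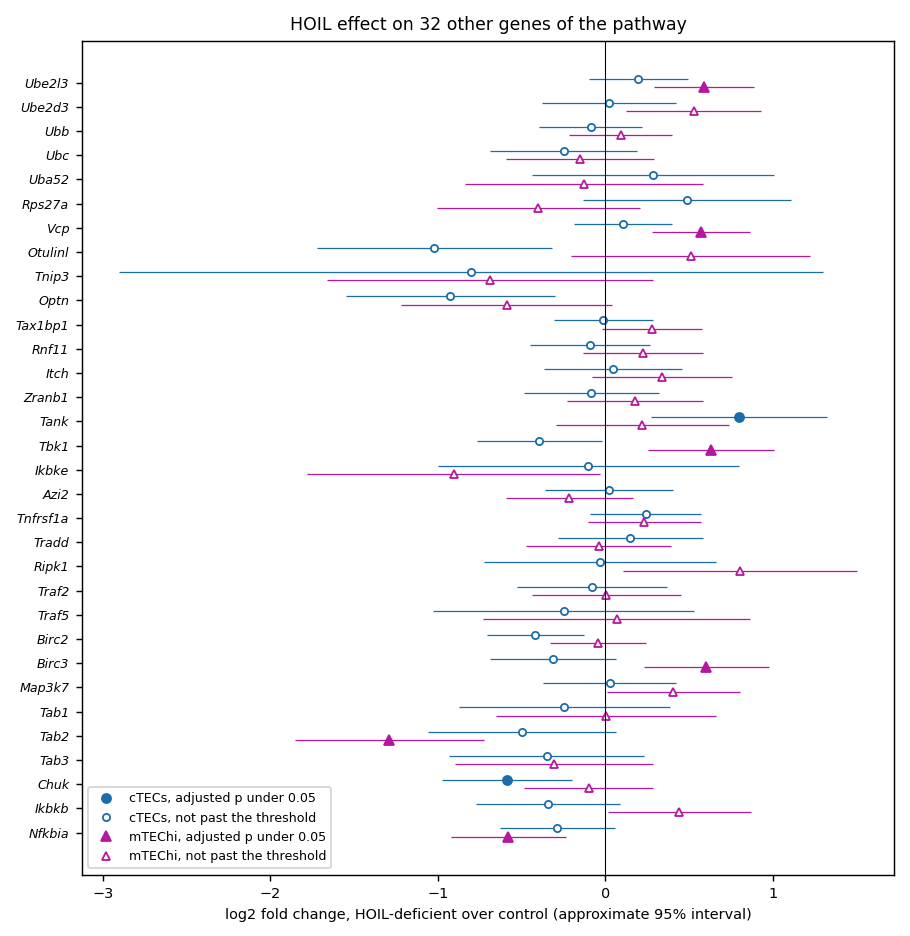
Log2 fold change of HOIL-deficient over control (horizontal axis) for 32 other genes of the pathway in cTECs (circles) and mTEChi (triangles), with approximate 95% intervals; filled symbols passed an adjusted p of 0.05. Tab2 in mTEChi lies farthest from 0 among the filled symbols, at -1.29.

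Between cell types, 9 of the 32 were higher and 15 lower in control mTEChi than in control cTECs, where 37.8% of all tested genes were called higher and 26.4% lower. The median log2 fold change was -0.43, beside 0.24 over all tested genes. Nfkbia was higher by 2.41 (adjusted p = 4.4e-08), Tank by 2.11 (adjusted p = 7.6e-06) and Birc2, which encodes cIAP1, by 0.77 (adjusted p = 0.00022). Lower genes included Tnfrsf1a, the TNF receptor 1 gene, at -1.85 (adjusted p = 3.6e-07), Tab1 at -2.19 (adjusted p = 3.6e-05), Vcp at -0.90 (adjusted p = 6.9e-05) and Ube2l3 at -0.89 (adjusted p = 8.8e-05). Tnip3, which encodes the ABIN-3 protein, measured 51.6, 71.0 and 75.9 CPM in control mTEChi and 0.561, 0.879 and 0.100 CPM in control cTECs, a difference past the threshold (adjusted p = 8.7e-07) whose fitted size depends on the prior count.

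In HOIL-deficient mTEChi against HOIL-deficient cTECs, 7 of the 32 were higher and 6 lower, where 32.0% of all tested genes were called higher and 16.4% lower. The median log2 fold change was -0.05, beside 0.19 over all tested genes. Nfkbia was higher by 2.12 (adjusted p = 1.9e-07), Birc3 by 1.58 (adjusted p = 5.9e-06) and Birc2 by 1.14 (adjusted p = 9.8e-06), and Tnip3 was also called (adjusted p = 1.5e-06). Tnfrsf1a was lower at -1.86 (adjusted p = 4.3e-07), Tab1 at -1.95 (adjusted p = 0.00013), Ube2l3 at -0.50 (adjusted p = 0.0082) and Itch, which encodes a ubiquitin ligase that partners A20, at -0.65 (adjusted p = 0.012).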

How the data were processed

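RNA of 12 sorted TEC libraries was amplified with SMART-Seq v4, made into Nextera XT libraries and sequenced in pairs on a NextSeq 500, per the labels' protocols. Per the submitters' processing notes, reads were counted per gene with featureCounts on mm10. The aligner, the annotation release, tool versions and strand settings were not given in the sources used here. The deposited files hold raw whole-number counts and a gene length for each of 27179 Entrez IDs, and 25275 IDs matched a symbol in a RefSeq table of GRCm38.p6. The deposited table joining all libraries was not used here.

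The counts went into edgeR 4.0.16 under R 4.3.3: filterByExpr over the 4 groups (minimum count 10, minimum total 15), TMM scaling, 1 coefficient per group over all 12 libraries, robust quasi-likelihood fits and Benjamini-Hochberg adjustment over 19398 genes, with a threshold of 0.05. The SE is the size of the log2 fold change divided by the root of the F statistic, and intervals are approximate at 95%. The 5 comparisons were HOIL deficiency in each cell type, the difference of these effects, and mTEChi against cTECs in each genotype. Libraries of a group differed by more than counting noise, so none was counted as a repeat. Alternatives were RLE and upper-quartile scaling, DESeq2 1.42.0, limma 3.58.1 (voom), no filter, only the compared groups, replicate blocks, males only, and each library left out. The script was tested on simulated data with known changes. Members, marker lists and the pathway list were chosen with earlier results of these data known. Genes named were the 10, list genes called in a comparison (up to 4 per direction with the smallest p), the 5 most like Rnf31, and genes overlapping or next to a member.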

Additional observations from a re-analysis of the deposited data

Results flagged for a closer look

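The HOIL effect differed between cell types for 2 of the 10 genes, by the interaction contrast of the edgeR quasi-likelihood fit. Of all tested genes, 5.97% were called higher and 3.86% lower by that contrast. For Otulin the effect in mTEChi minus that in cTECs was -0.80 on the log2 scale (adjusted p = 0.044). HOIL-deficient libraries lay below control libraries in mTEChi and overlapped them in cTECs. For Tnip2 the same difference was 0.89 (adjusted p = 0.027), with HOIL-deficient libraries above controls in mTEChi and overlapping them in cTECs. Both calls were lost in most analyses that left out 1 library, as given in the report. They were also lost with males only (adjusted p = 0.097 for Otulin and 0.11 for Tnip2). Mitochondrial and Malat1 shares were higher in control mTEChi than in HOIL-deficient mTEChi, and their part in the result was not tested.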

How the results depend on the processing

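Of 1020 alternative values of the 10 genes over 5 comparisons, 901 kept their direction and side of the threshold, 65 lost a call, 12 gained one and 42 changed sign. None of the 42 was a called value, before or after the change. Rbck1 in both cell types and Otulin in mTEChi kept their genotype calls in all 20 alternatives. Counts of called genes changed as follows, and the cause was not tested. In cTECs, 2342 genes became 1395 with only the compared groups and 1540 with males only, and 1340 to 2409 when 1 library was left out, with 1 to 3 of the 10 genes in place of 3. In mTEChi, 3858 became 1944 to 4395 when 1 library was left out, with 2 to 6 of the 10 genes in place of 5, and 2 with males only. For the difference of effects, 1908 became 1030 with males only and 949 to 2088 when 1 library was left out. The 2 genes called there (Otulin, Tnip2) became 1 with RLE or upper-quartile scaling, 0 with males only and 0 to 2 when 1 library was left out.

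Deviations of same-numbered replicates from their group means had correlations of -0.16 to 0.098 over all pairs of groups. Between HOIL-deficient cTECs and mTEChi these were 0.049, 0.078 and 0.035, against -0.060 to 0.019 for unlike numbers. Between control cTECs and mTEChi they were 0.00035, 0.098 and -0.037, against -0.055 to 0.063. The labels name no pairs, and the main fit took none. With a replicate block across genotypes, the count for the difference was 1, since Otulin had an adjusted p of 0.058 (log2 -0.81). In that fit Sharpin in cTECs (0.069) and Rnf31 in mTEChi (0.081) were not called. With the block set within each genotype, the count for the difference stayed at 2.

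Scaling moved the median of all genes by 0.17 to 0.19 for control mTEChi against control cTECs and by -0.16 to -0.14 for the difference of effects. The share of higher among called genes for the difference was 60.7% (1159 higher, 749 lower), against 45.0% with RLE (714 and 873) and 42.0% with upper-quartile factors (651 and 899) and 46.6% with DESeq2 (1287 and 1476). In mTEChi it was 56.8% (2191 and 1667) against 46.3% with upper-quartile factors (1708 and 1979) and with DESeq2 (2207 and 2556), and 47.0% with RLE (1748 and 1973).

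The values that changed sign were these. Under RLE, upper-quartile scaling and DESeq2, the mTEChi effects of Sharpin (-0.037, -0.038 and -0.037) and Ikbkg (-0.035, -0.038 and -0.035) and the differences of Rbck1 (-0.0080, -0.031 and -0.010) and Rnf31 (-0.12, -0.15 and -0.12) turned negative. The Rnf31 difference was -0.032 with limma-voom and -0.00068 with no filter. With males only, Cyld in cTECs was 0.11, Ikbkg in mTEChi -0.0078, the Rbck1 difference -0.39 and Rnf31 between control cell types -0.0093. Leaving out 1 library, the effects in cTECs ranged from -0.19 to 0.092 for Otulin, -0.35 to 0.11 for Cyld and -0.63 to 0.028 for Spata2, and in mTEChi from -0.053 to 0.17 for Ikbkg and -0.39 to 0.040 for Tnip1. The differences ranged from -0.34 to 0.37 for Rbck1, -0.28 to 0.29 for Rnf31, -0.049 to 0.38 for Tnfaip3 and -0.045 to 0.41 for Tnip1. Between HOIL-deficient cell types, Rnf31 ranged from -0.19 to 0.27 and Sharpin from -0.13 to 0.034, and between control cell types Rnf31 from -0.23 to 0.33 and Spata2 from -0.53 to 0.081.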
